A study of Mus musculus with 7 samples.

Results

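RNA from the first and the last sections of 3 mouse tibialis anterior muscles labelled DMD (the series title names Duchenne muscular dystrophy), here DMD-1, DMD-2 and DMD-3, was compared to ask how far expression differed between the ends of the same muscle. Tibialis anterior is the fast muscle at the front of the lower leg. Each muscle had been cut into serial cryosections, and each section gave its own counts. Sections with fewer than 1000 counts, or with under 20% of what the median section of that muscle had, were left out, and the rest were ordered by the number in their column name. The ordered sections were divided into 5 successive parts of near equal number. Counts were summed over the first part (the first end) and over the last part (the last end) of each muscle. This used 76 DMD sections (38 first, 38 last) of 192 kept and 233 sequenced in these muscles, out of 525 in the whole series. The sums held 13, 13 and 12 sections at each end of DMD-1, DMD-2 and DMD-3.

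The series has 3 DMD, 2 Ctr and 2 WT muscles. The labels give the tissue and these group names, and no genotype, strain, sex, age or treatment. The column names carry mdx for DMD, hDMD for Ctr and pax7 for WT, which the labels do not explain. Nothing says that the muscles came from separate animals, and the p-values reflect only how these samples vary, which may be technical. Dmd, the dystrophin gene, was detected in all 6 DMD sums, at 15.6, 22.5 and 12.8 CPM after TMM scaling in the first ends of DMD-1, DMD-2 and DMD-3 and 11.9, 18.7 and 6.45 in the last ends, so its RNA level does not by itself check the group label.

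A muscle is not uniform along its length. Fibres are anchored to tendon at myotendinous junctions, nerve endings lie in a band away from the ends, and oxidative and glycolytic fibres are spread unevenly. In muscle without dystrophin, fibres tear, die and regrow in patches. Macrophages clear the debris, satellite cells fuse into new fibres that express embryonic contractile genes, and scar matrix and fat can replace fibres that are lost.

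The labels do not say which anatomical end has the low numbers. First ends carried section numbers 7 to 56, 5 to 53 and 4 to 51, and last ends 246 to 294, 247 to 297 and 201 to 251. The numbers ran in blocks with gaps, like plate positions, and the low numbers lay at the first end of every muscle. Between 2 DMD muscles the first ends shared 9 to 11 section numbers, and the last ends shared 11 in DMD-1 and DMD-2 but 6 or 5 where DMD-3 was 1 of the pair. If the number stands for the section barcode, which the labels do not say, then barcode and position cannot be told apart within a muscle. The first end had 6849707, 1956869 and 4120040 counts in DMD-1, DMD-2 and DMD-3, against 6537762, 1896145 and 2803756 in the last end. It was the higher in 3 of 3 muscles (two-sided exact sign-flip permutation test, p = 0.25, the smallest that 3 pairs allow). Mitochondrial genes took 33.2%, 26.8% and 34.8% of counts in the first ends and 24.0%, 22.4% and 35.5% in the last ends (exact p = 0.5). The genes of fast type 2X and 2B fibres together gave 139700 to 169100 CPM (counts scaled to a common total per sum) in the first ends and 146700 to 199000 CPM in the last, so fast fibre genes were abundant at both ends.

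DMD-1 stood apart in its scaling. TMM, which sets the typical gene to no difference, gave factors of 0.951 for its first end and 1.43 for its last, against 1.10 and 1.14 in DMD-2 and 0.760 and 0.778 in DMD-3. In DMD-1 this moved the median gene up by 0.56 on the log2 scale relative to library totals alone, and by 0.05 and 0.03 in DMD-2 and DMD-3. Differences below are relative to the typical gene of that muscle. Fold changes are log2 of first over last, so a positive value means higher in the first end, and "scaled CPM" is after TMM.

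No gene passed the test across the 3 muscles. With edgeR's quasi-likelihood F test with the muscle as block and Benjamini-Hochberg adjustment, 0 of 9166 genes (0%) had an adjusted p below 0.05, and DESeq2 called 0 as well. At an unadjusted p below 0.05 there were 683 genes by edgeR (7.45%), of which 233 (2.54%) were higher in the first end and 450 (4.91%) lower, and 143 by DESeq2. Of 3046 genes with a mean of at least 20 scaled CPM, 714 (23.4%) had the same sign in all 3 muscles. The count of genes called rested on which muscles were in the fit. It was 4 without DMD-1, 126 without DMD-2 (9 higher, 117 lower) and 34 without DMD-3. It was 11 with ends of 1 in 10 sections, 41 with sections thinned to a common depth and 79 with no filter on low counts. None of the first-against-last values in DMD that follow passed in the main fit of all 3 muscles. Calls named below come from other settings or other fits.

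**Figure D1:**
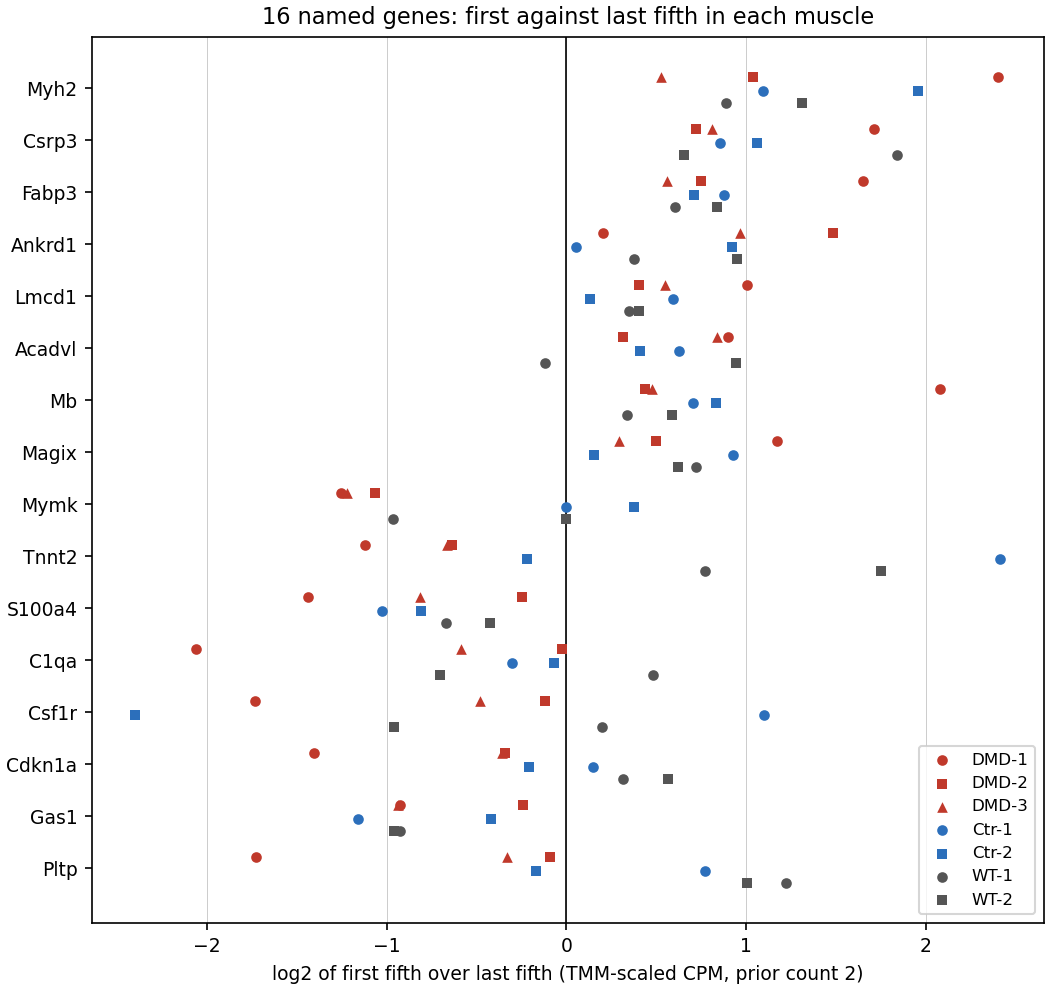
First-over-last log2 difference (x axis, TMM-scaled CPM over all 14 sums) of the 16 genes with the smallest unadjusted p per direction, with a mean of at least 20 CPM and 1 sign in the 3 DMD muscles. Each point is 1 muscle. Myh2, Csrp3 and Fabp3 lie right of 0 in all 7 muscles, and Mymk lies left of 0 in all 3 DMD muscles, between -1.25 and -1.07.

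Genes of oxidative type 2A fibres had higher values in the first end. All 6 of the list were tested; all 6 had fold changes above 0, with a median of 1.02 against 0.00 over all genes tested, and 5 of 6 had an unadjusted p below 0.05, against 2.54% of all genes in that direction. The muscle medians were 1.93, 0.60 and 0.39 in DMD-1, DMD-2 and DMD-3. In library totals alone they were 1.36, 0.55 and 0.36.

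Myh2 (GRCm38 chr11:67171027-67197517) encodes the myosin heavy chain that defines type 2A fibres. It had 183, 88.7 and 55.8 scaled CPM in the first ends of DMD-1, DMD-2 and DMD-3 and 32.2, 42.6 and 38.7 scaled CPM in the last ends. The 3 first values all lay above the 3 last values, and the spread among first ends was far the wider. The log2 fold was 1.42 ± 0.29 (SE, n = 3 muscles; edgeR adjusted p = 0.150). Of the alternatives, it passed without DMD-2 (adjusted p = 0.0249), without DMD-3 (0.00159), with ends of 1 in 10 sections (0.0427), with thinned sections (0.00997) and with no filter (0.000120). Without DMD-1 it did not pass, and the log2 fold of Myh2 fell to 0.80 (edgeR adjusted p = 0.325). Over the 16 alternatives its adjusted p ranged from 0.000120 to 0.9999 (no replicate block), and its sign was the same in all 16.

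Fabp3 (chr4:130308595-130315463), a fatty acid carrier of oxidative muscle, had 278, 277 and 138 scaled CPM in the first ends and 83.4, 164 and 93.5 in the last, with a log2 fold of 1.03 ± 0.26 (edgeR adjusted p = 0.294). Myoglobin (Mb), which stores oxygen, had 1044, 1092 and 835 scaled CPM in the first ends and 233, 802 and 600.0 in the last (log2 fold 1.02 ± 0.33). Both sets of Mb values were separate, as were those of Ckmt2, the mitochondrial creatine kinase of muscle, at 779, 902 and 865 against 232, 686 and 697. The list's summed level gave another picture in DMD-3. It was 10230, 12770 and 7521 CPM in the first ends against 5876, 10910 and 7911 in the last, so DMD-3 was slightly lower at its first end. Cox6a2, the muscle isoform of a cytochrome oxidase subunit, had the most counts of the list, with 8032 scaled CPM in the first end of DMD-3 and 8772 in the last.

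Myl3, a light chain of slow fibre and heart myosin, had the smallest unadjusted p of all genes (5.5e-05) and is named after its values were seen. Its counts were low, 99, 30 and 22 in the first ends against 27, 6 and 12 in the last, and its log2 fold was 1.80 ± 0.37 (edgeR adjusted p = 0.150). Myl2, another light chain of slow fibres and heart, had the highest log2 fold of the 9166 genes tested, 2.64 ± 0.60 (edgeR adjusted p = 0.169), on 20, 7 and 16 counts in the first ends against 3, 4 and 0 in the last. Both were called without DMD-2 and with no filter on low counts. They were the 2 slow fibre genes of 8 tested (10 listed) with an unadjusted p below 0.05, against 2.54% of all genes in that direction. Of the 8, 4 were above 0 and 4 below, with a median of -0.08, so the list as a whole had both signs.

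Genes for burning fat and for oxidative phosphorylation had small differences of the same sign. All 10 fat oxidation genes were above 0 (median 0.51). Of the 10, 5 had an unadjusted p below 0.05, against 2.54% of all genes in that direction. Also 5 were higher in each of the 3 DMD muscles, against 13.3% of all genes tested. On the scale of all 14 sums, fat oxidation medians were also above 0 in Ctr (0.31 and 0.23) and WT (0.45 and 0.73). Acadvl, which starts the breakdown of very long chain fatty acids, had 30.6, 27.7 and 28.5 scaled CPM in the first ends and 15.2, 22.0 and 15.7 in the last, with no overlap. All 16 oxidative phosphorylation genes were above 0 (median 0.42). Of these genes, 11 were higher in each of the 3 DMD muscles, against 13.3% of all genes, and 2 had an unadjusted p below 0.05, against 2.54%. Their muscle medians were 1.02, 0.16 and 0.19 in DMD-1, DMD-2 and DMD-3, and 0.44, 0.11 and 0.16 in library totals. On the scale of all 14 sums, their medians were also above 0 in Ctr (0.27 and 0.22) and WT (0.14 and 0.29). The 9 mitochondrially encoded genes had medians of 1.12, 0.28 and -0.02, so DMD-3 showed no such difference.

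Csrp3, Ankrd1 and Lmcd1 code for proteins of the sarcomere and of load and growth signalling in muscle. They were higher in the first end of each DMD muscle, a sign that the rule choosing them required. The same sign was seen in every Ctr and WT muscle. There the log2 differences were 0.65 to 1.84 for Csrp3, 0.05 to 0.95 for Ankrd1 and 0.13 to 0.59 for Lmcd1. Csrp3 (chr7:48830398-48848033), a Z-disc protein also called muscle LIM protein, had 99.9, 56.3 and 38.5 scaled CPM in the first ends and 28.4, 33.7 and 21.6 in the last, with no overlap (log2 fold 1.18 ± 0.25, edgeR adjusted p = 0.150). Ankrd1 (chr19:36111961-36120099), a titin-binding protein induced by stretch and injury, had 459, 253 and 123 scaled CPM in the first ends and 378, 89.4 and 62.6 in the last. Its first and last values overlapped, with wide differences in level between muscles. The log2 difference was 0.28 in DMD-1, 1.49 in DMD-2 and 0.97 in DMD-3, and Ankrd1 passed without DMD-1 (1.24, edgeR adjusted p = 0.000152). Lmcd1, a LIM protein that acts on calcineurin signalling, had 62.2, 54.9 and 56.1 scaled CPM against 28.9, 41.2 and 38.2, with a log2 fold of 0.71 ± 0.23. Magix, the remaining gene of this direction chosen by rule, had first values of 26.6 to 28.3 and last values of 11.5 to 21.6 scaled CPM.

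**Figure D2:**
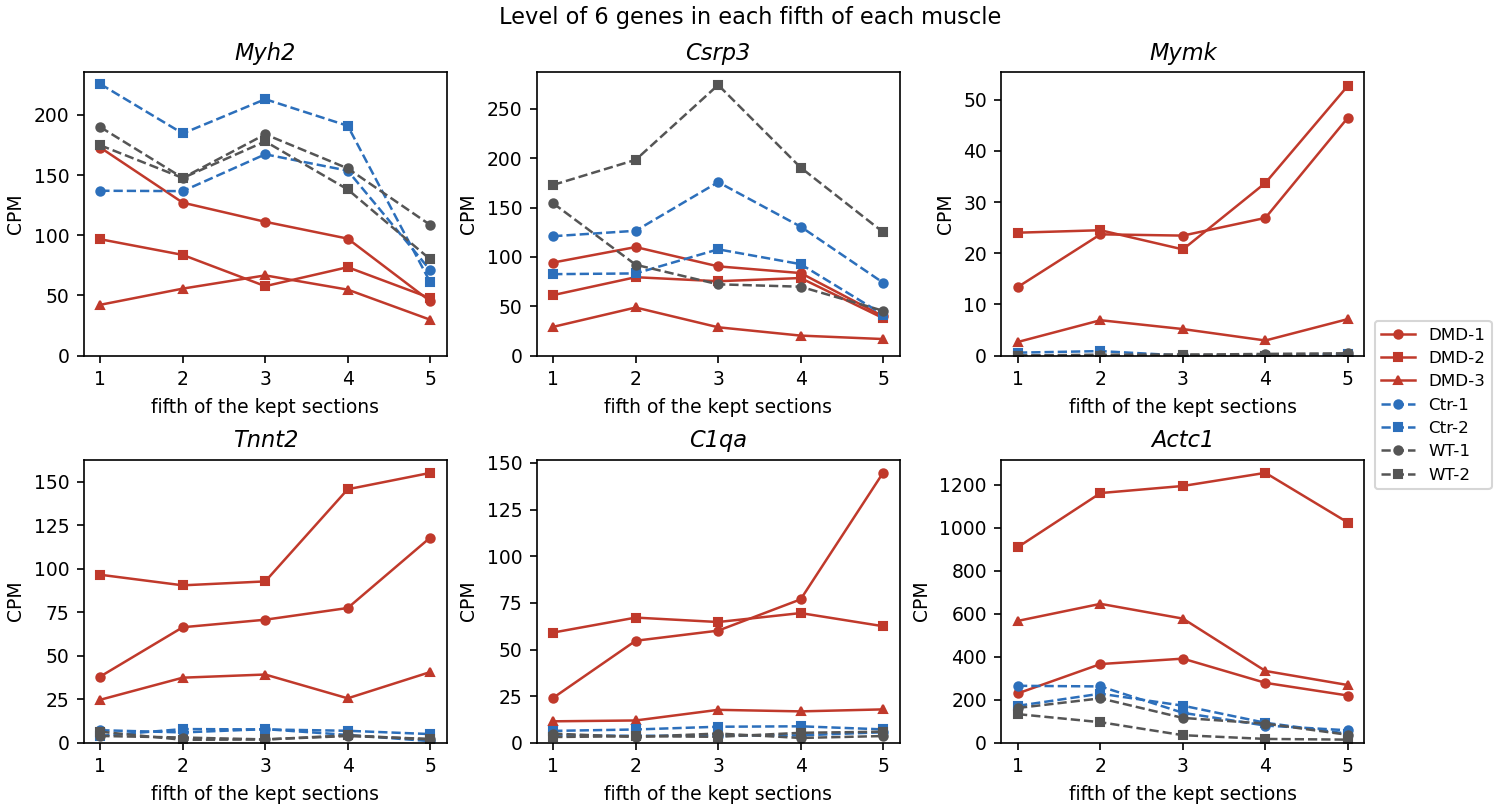
Level (y axis, CPM of each part's total, unscaled) of 6 genes in the 5 successive parts of the kept sections (x axis), 1 line per muscle. Mymk is highest in the last end of each DMD muscle, at 46.5 CPM in DMD-1 and 52.7 CPM in DMD-2. C1qa climbs along DMD-1 to 144.7 CPM. In DMD-3 C1qa lies between 11.5 and 17.9 CPM, lower in the first end than in the last.

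Genes of regenerating fibres leaned the other way. Of 12 listed genes 11 were tested, 10 of them below 0, with a median of -0.80; 7 had an unadjusted p below 0.05, against 4.91% of all genes in that direction, and 6 were lower in each of the 3 muscles, against 11.3%. The muscle medians were -0.53, -0.80 and -0.53, and -1.09, -0.85 and -0.56 in library totals, so the 3 muscles leaned the same way.

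Mymk (chr2:27061636-27072179) encodes myomaker, the membrane protein that lets myoblasts fuse. It had 14.2, 22.1 and 3.53 scaled CPM in the first ends of DMD-1, DMD-2 and DMD-3 and 33.1, 46.8 and 9.21 in the last. Each muscle had less than its own last end by nearly the same factor, with log2 differences of -1.19, -1.07 and -1.27, although the levels themselves differed widely between muscles. The log2 fold was -1.20 ± 0.25 (edgeR adjusted p = 0.150), and it was -2.40 with ends of 1 in 10 sections (adjusted p = 0.000922) and -1.83 with thinned sections (0.00803). In the unscaled profile Mymk went through 13.4, 23.7, 23.5, 26.9 and 46.5 CPM in the successive parts of DMD-1 and through 24.0, 24.5, 20.8, 33.8 and 52.7 CPM in those of DMD-2. In DMD-3 its level was low, and it was also lowest in the first end, at 2.67 CPM, and highest in the last, at 7.13 CPM. The Ctr and WT end sums held at most 0.617 CPM of Mymk on the scale of all 14 sums, so the gene cannot be compared along those muscles.

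Tnnt2 (chr1:135836354-135852260), the cardiac troponin T that embryonic and regrowing skeletal fibres also use, had 40.4, 88.7 and 32.7 scaled CPM in the first ends and 83.9, 138 and 52.5 in the last. Its log2 fold was -0.80 ± 0.22 (edgeR adjusted p = 0.339), and -1.38 with ends of 1 in 10 sections (0.0480). Myh3, the embryonic myosin heavy chain, is named after its values were seen; it had 10.5, 15.02 and 7.38 scaled CPM against 15.3, 33.7 and 13.3. Igf2, a growth factor, had 27.4, 72.8 and 39.8 against 29.4, 131 and 57.6, but its exons overlap Gm49394 on the same strand and the 2 had identical values in DMD-2, so these reads cannot be assigned between them.

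Actc1 (chr2:114047282-114053548), the cardiac actin that is also made in developing and regrowing fibres, was the 1 list member above 0. It had 244, 836 and 749 scaled CPM in the first ends and 157, 909 and 347 in the last, which overlap, with a log2 fold of 0.54 ± 0.29 (edgeR adjusted p = 0.713). Actc1 also gave 60.6% to 86.1% of the list's summed level in 5 of the 6 DMD sums, and 35.8% in the last end of DMD-1. That level was 379.5, 1239 and 658.5 CPM in the first ends and 614, 1583 and 405 CPM in the last. Without scaling it gave 567 of the first-end CPM of DMD-3 and 269 of its last-end CPM, and the sum over the list in DMD-3 therefore ran against the list's median.

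Macrophage genes were lower in the first end of DMD-1 and DMD-3 but not of DMD-2. All 14 listed genes were tested, and the median fold was -0.82. The fold was below 0 for 14 of 14, and 10 had an unadjusted p below 0.05, against 4.91% of all genes. Of the 14, 3 were lower in each of the 3 muscles, against 11.3% of all genes. The medians were -1.84 in DMD-1, 0.23 in DMD-2 and -0.83 in DMD-3. Without DMD-2, the muscle with the opposite sign, 11 of the 14 were called, all lower in the first end, where 117 of 10262 genes (1.14%) were called lower. Without DMD-1, and likewise without DMD-3, no gene of the list was called. With all 3 muscles kept, 7 of the 14 were called lower with thinned sections, among 36 genes called lower there. With no filter on low counts, 2 of the 14, Gpnmb and Mrc1, were called lower, among 64.

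Summed over the list, macrophage genes gave 759.7, 1375 and 139.8 CPM in the first ends and 3913, 1193 and 260.4 in the last. Section by section, the first end of DMD-1 lay between 416 and 1223 CPM and its last between 2144 and 5718 CPM, with no overlap. In DMD-2 the ranges were 1042 to 2534 and 905 to 1478 CPM, and in DMD-3 59.9 to 220.3 and 113 to 396 CPM, which overlapped in both muscles. The level in DMD-1 climbed from its 4th to its 5th part, at 1780 and 3913 CPM, after 1350 and 1498 CPM in the 2nd and the 3rd.

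C1qa, a chain of the complement protein C1q made by tissue macrophages, had 25.5, 54.5 and 15.1 scaled CPM in the first ends and 103, 55.2 and 23.0 in the last (log2 fold -0.95 ± 0.30, edgeR adjusted p = 0.383). Csf1r, the receptor for macrophage growth factor, had 41.0, 49.3 and 19.9 against 131, 53.4 and 28.1 scaled CPM (-0.83 ± 0.27, edgeR adjusted p = 0.426). In both genes DMD-2 differed by under 0.12 on the log2 scale and DMD-1 by over 1.6. Ctss, a lysosomal protease, had 97.3, 126 and 12.2 against 354, 117 and 30.9. Gpnmb, a marker of lipid-loaded and repair macrophages, was the gene with a mean of at least 50 scaled CPM in DMD-1 that was furthest below 0 there, with 37.6 in the first end and 240 in the last; it had 54.9 against 41.2 in DMD-2 and 4.17 against 10.1 in DMD-3. Gpnmb was singled out for this difference, so it is a description.

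The other genes below 0 that the rule chose followed DMD-1 most. S100a4, a calcium-binding protein of fibroblasts and immune cells, had 30.9, 42.7 and 10.9 scaled CPM in the first ends and 80.5, 50.5 and 19.8 in the last. Cdkn1a, the cell-cycle inhibitor p21, had 40.2, 36.6 and 16.4 against 102, 46.3 and 21.2. Pltp, a phospholipid transfer protein, had 34.8, 28.6 and 14.1 against 111, 30.4 and 18.0. Gas1, a gene of growth-arrested fibroblasts, did not follow DMD-1: it had 12.7, 17.4 and 19.6 against 23.4, 20.6 and 38.2, which did not overlap.

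Matrix, proliferation and interferon genes were also furthest below 0 in DMD-1. The 16 fibrotic matrix genes had muscle medians of -1.01, 0.09 and -0.26 and a summed level of 1757, 3276 and 850.8 CPM in the first ends against 5209, 3159 and 904 in the last. For the 5 proliferation genes tested (of 6) the medians were -2.0, 0.66 and 0.00, so DMD-2 had the opposite sign. Of the 5, 4 were lower at an unadjusted p below 0.05, against 4.91% of all genes. The 0.00 in DMD-3 is the value of Mki67, which had 0 scaled CPM at both ends there. Top2a had 0.962 and 0.921 scaled CPM in DMD-3, so these levels are too low to compare its ends. Interferon response genes, with 4 of 10 tested, had medians of -1.05, 0.02 and 0.11. These medians leave out rarer members of the list. With no filter on low counts, Irf7 (log2 fold -2.28, edgeR adjusted p = 0.000544) and Ifit3 (-2.50, 0.0288) were called lower, among 64 genes called lower there. Irf7 was also called lower without DMD-2, and Ifit1 (-2.37) without DMD-3. Lymphocyte and granulocyte lists had no member above the filter; their summed levels reached at most 2.14 and 5.97 CPM, and Cd3e, Cd8a and Cxcr2 had no count in any DMD end. Whether fewer cells of a type or less RNA per cell lies behind such values cannot be told apart in whole sections.

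**Figure D3:**
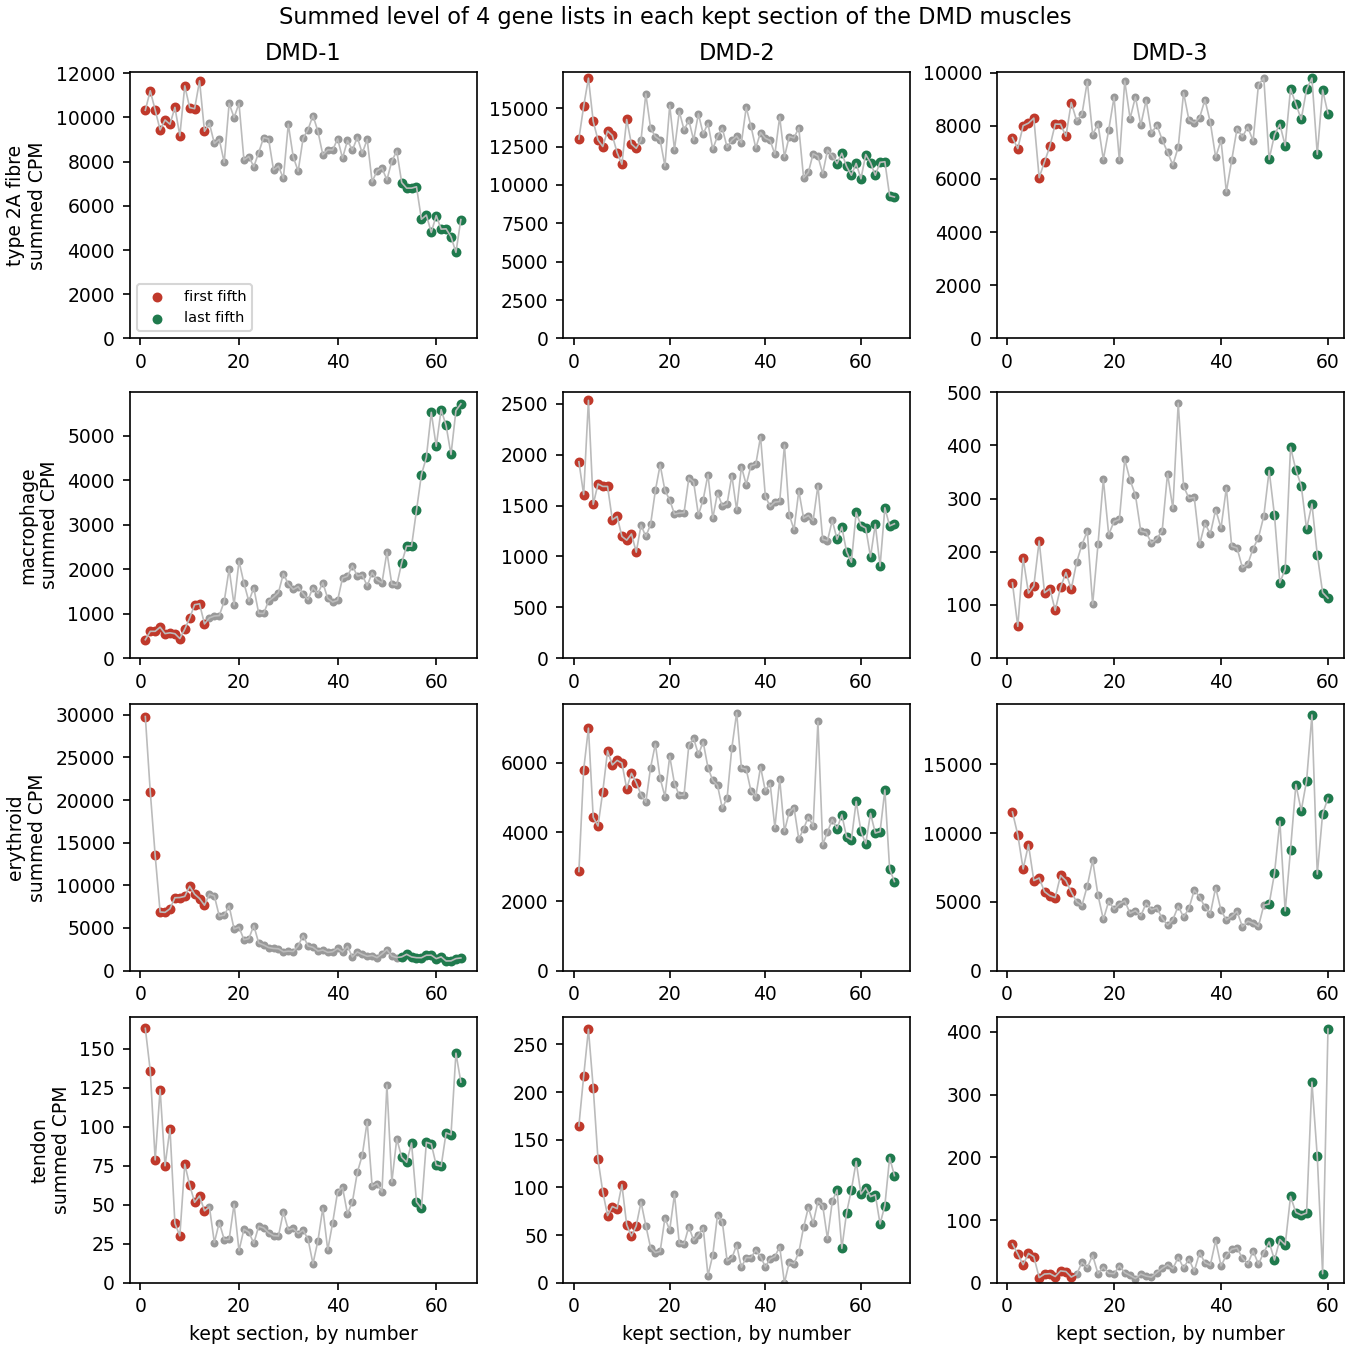
Summed CPM (y axis, unscaled, each panel with its own range) of 4 gene lists in every kept section (x axis, order by section number) of the 3 DMD muscles, with the first end in red and the last end in green. Macrophage genes reach 5718 CPM at the last end of DMD-1, erythroid genes 29800 CPM at the first end of DMD-1 and 18610 CPM at the last end of DMD-3, and tendon genes are high in some sections of both ends in DMD-1 and DMD-2.

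Tendon genes did not mark the same end in the 3 muscles. Of 10 listed genes 9 were tested, with a median of -0.51, 1 of them higher and 1 lower at an unadjusted p below 0.05, against 2.54% and 4.91% of all genes. The muscle medians were 0.22, 0.14 and -1.96, and -0.33, 0.10 and -1.94 in library totals, so the sign in DMD-1 depended on the scaling. The summed level was 70.2, 88.4 and 21.6 CPM in the first ends and 82.9, 90.7 and 105 in the last. In the 2nd to the 4th part it lay between 32.4 and 70.8 CPM in DMD-1, between 28.9 and 52.0 in DMD-2 and between 18.6 and 40.9 in DMD-3. DMD-2 thus had most tendon RNA at both ends and DMD-3 at its last end, while in DMD-1 the 4th part was as high as the first.

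Chad, a cartilage and tendon matrix protein, had 11.4, 16.4 and 2.57 scaled CPM in the first ends and 2.39, 8.89 and 41.9 in the last, higher at the first end in DMD-1 and DMD-2 and lower in DMD-3. It was called in opposite directions by the fit without DMD-1 (-1.49, edgeR adjusted p = 0.00730) and, as 1 of the 34 genes called there, without DMD-3 (1.61). Fmod, which organises tendon collagen, had 17.0, 22.1 and 3.21 against 10.3, 18.3 and 22.1. The 4 Ctr and WT muscles were all below 0, with tendon medians of -1.18 and -0.70 in Ctr and -2.06 and -0.91 in WT.

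At the myotendinous junction the list medians differed in sign between groups, which was not tested for the list. Of 8 listed genes 6 were tested, 4 above 0 and 2 below, with a median of 0.44, and 3 were higher in each of the 3 DMD muscles, against 13.3% of all genes. The muscle medians were 0.40, 0.53 and 0.19 in DMD-1, DMD-2 and DMD-3; with library totals alone DMD-1 was at -0.18. On the scale of all 14 sums the DMD medians were 0.32, 0.51 and 0.19, against -0.41 and -0.54 in Ctr and -0.33 and -0.48 in WT. Ankrd1, which belongs to this list, was above 0 in every muscle of the 3 groups, so it did not share that difference in sign. On the same scale Ankrd1 had 374, 206 and 100 CPM in the DMD first ends and at most 44.1 CPM in Ctr or WT. The list's summed level, without TMM scaling, was 662, 574 and 229.6 CPM in the first ends against 814, 391.9 and 303 CPM in the last. It was lower at the first end in DMD-1 and DMD-3. In DMD-1 the median in library totals was also below 0, while in DMD-3 the median was above 0 there too, at 0.16.

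Col22a1, the collagen that marks the junction in mouse and zebrafish, had 7.58, 9.39 and 4.17 scaled CPM in the DMD first ends and 3.92, 5.15 and 2.30 in the last; it is named after its values were seen. Its log2 fold was 0.90 ± 0.34 in DMD (edgeR adjusted p = 0.503), -1.40 in Ctr and -1.46 in WT, and the DMD difference minus that of Ctr was 2.25 (adjusted p = 0.999) and minus that of WT 2.32 (adjusted p = 0.869). These values rest on 5 to 49 counts in a DMD sum and 1 to 13 in a Ctr or WT sum. Thbs4, a matrix protein of tendon attachment, had 134, 178 and 88.5 scaled CPM against 98.7, 149 and 237, so DMD-3 went the other way, as its tendon genes did.

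Erythroid genes, which follow blood left in the tissue, had the list median furthest from 0 in a single muscle. Of 6 listed genes 5 were tested, all higher with an unadjusted p below 0.05, against 2.54% of all genes, and with a median of 1.04, but the muscle medians were 3.09, 0.57 and -0.39. Hba-a1, a haemoglobin alpha chain, had 4644, 2406 and 4286 scaled CPM in the first ends and 499.5, 1655 and 5352 in the last. DMD-3 was thus the reverse of DMD-1. All 4 Ctr and WT muscles were higher at the first end, with medians of 1.81 and 3.70 in Ctr and 2.50 and 2.00 in WT. Within the alpha and within the beta haemoglobin genes the copies are near-identical, and reads shared between copies had been split. The part of blood content in other results was not tested.

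The Schwann cell and nerve list had 3 of 10 genes tested, with medians of 0.03, 0.06 and -0.57 in DMD-1, DMD-2 and DMD-3 against 1.30 and 1.51 in Ctr and 1.35 and 0.69 in WT; library totals moved DMD-1 to -0.54. Mbp, a myelin protein, had 13.8, 15.96 and 9.62 scaled CPM in the DMD first ends and 13.5, 15.4 and 7.37 in the last. For neuromuscular junction genes, 7 of 14 were tested and 5 were below 0, with a median of -0.36. Of the 7, 4 were lower in each of the 3 muscles, against 11.3% of all genes, and 2 had an unadjusted p below 0.05, against 4.91%. The list's summed level was also lower at the first end of each muscle, at 175, 220.3 and 129 CPM against 364, 266 and 169 CPM at the last. Chrna1, the alpha subunit of the acetylcholine receptor, had 34.8, 44.1 and 24.4 against 60.0, 63.2 and 34.1, lower at the first end in each muscle (log2 fold -0.61 ± 0.22, edgeR adjusted p = 0.489). Chrna1 is also raised in muscle that has lost its nerve or is regrowing.

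The remaining lists had medians between -0.41 and 0.34, with muscles that often differed. Median log2 folds were 0.16 for type 2X and 2B fibre genes (12 tested), 0.15 for glycolysis (12), 0.34 for endothelial (10), 0.16 for pericyte and smooth muscle (9), 0.20 for dystrophin complex (10), -0.25 for fibro-adipogenic progenitor (10), 0.22 for adipocyte (5), -0.10 for atrophy and denervation (10), -0.10 for immediate early and heat shock (9) and 0.13 for limb position genes (5). In DMD-1 the medians for type 2X and 2B fibre, glycolysis, endothelial and dystrophin complex genes were 0.59, 0.53, 0.54 and 0.42 after TMM and 0.01, -0.05, -0.03 and -0.15 with library totals, so their direction there is set by the scaling. Fibro-adipogenic progenitor genes had medians of 0.10, -0.37 and -0.32 in DMD-1, DMD-2 and DMD-3, and -0.48, -0.42 and -0.35 in library totals. Their summed level without TMM scaling was lower at the first end of each muscle, at 1033, 1546 and 695 CPM against 1365, 2046 and 1070 CPM at the last. In DMD-1 that sign is the one of the library totals median, and the median after TMM had the other sign. Immediate early and heat shock genes had medians of 0.10, 0.00 and 0.42, with DMD-3 the highest. Satellite cell genes, with 3 of 6 tested, had medians of -1.04, 0.50 and 0.20. Myod1, a regulator of satellite cells and of fibre type, had 66.5, 52.6 and 52.9 scaled CPM in the first ends and 147, 59.0 and 46.1 in the last. The 10 bone, cartilage and skin genes had none above the filter, and their summed level was 19.9, 6.13 and 0.971 CPM in the first ends against 0.918, 1.06 and 0.713 in the last. Most of the DMD-1 value was 1 gene, Ibsp, with 17.5 CPM (88.1% of the list), so it does not describe the list as a whole.

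To ask whether ends differed in another way in DMD than in the other muscles, the first-against-last difference was compared between groups in 1 fit of the 14 end sums. DMD minus Ctr called 0 of 9716 genes (0%), with 401 (4.13%) at an unadjusted p below 0.05, and DMD minus WT called 0 of 9716, with 466 (4.8%). Against the mean of Ctr and WT, a contrast added after the data were seen, 2 genes were called (0.0206%), with 566 (5.83%) at an unadjusted p below 0.05. That count lay between 0 and 20 when 1 muscle was left out. Taken singly in that fit, the DMD term called 1 gene (0.0103%), the Ctr term 11 (0.113%) and the WT term 4 (0.0412%).

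Actc1 was 1 of the 2. On the scale of all 14 sums it had 198, 683 and 611 CPM in the DMD first ends and 134.5, 747 and 282 in the last. It had 266 and 185 CPM in the Ctr first ends against 52.6 and 43.0 in the last, and 212 and 204 CPM in the WT first ends against 45.9 and 19.99 in the last. The log2 difference was 2.32 and 2.09 in Ctr and 2.19 and 3.32 in WT, against 0.56, -0.13 and 1.11 in DMD, with no overlap. DMD minus the mean of the others was -1.94 ± 0.29 (edgeR adjusted p = 0.0213; 0.182 against Ctr alone and 0.112 against WT alone). The call was lost without Ctr-1 (0.147), Ctr-2 (0.0657) or WT-2 (0.195).

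Slfn2, a gene of the Schlafen family expressed in immune cells, was the other (chr11:83065112-83070678). It had 10.3, 8.06 and 2.62 CPM in the DMD first ends and 40.2, 11.9 and 6.37 in the last, lower at the first end in each. It had 4.62 and 14.2 CPM against 2.07 and 3.07 in Ctr and 3.86 and 2.80 against 1.11 and 0 in WT, higher at the first end in all 4. The difference was -3.48 ± 0.58 (edgeR adjusted p = 0.0417). It missed the threshold without DMD-3 (0.101), Ctr-1 (0.0598), Ctr-2 (0.189), WT-1 (0.303) or WT-2 (0.195) and with library totals alone (0.209). Its counts were low, 10 and 17 at the ends of DMD-3 and 0 to 23 in Ctr and WT. Macrophage genes were lower at the same ends of DMD-1 and DMD-3, and their part in the Slfn2 difference was not tested.

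The gene called in the DMD term, Ibsp, encodes bone sialoprotein. It had 120, 5 and 1 counts in the first ends of DMD-1, DMD-2 and DMD-3 and 0 in all 3 last ends, so nearly all of its counts came from DMD-1. Its adjusted p in edgeR's fit of the 14 sums was 0.00224. It was too rare for the fit of the DMD sums alone. Ctr sums held no count of Ibsp, and WT sums had 15 and 15 at the first end against 0 and 2 at the last.

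The 3 DMD muscles resembled each other less than the other muscles did in which genes differed between ends. Over 2682 genes with a mean of at least 20 CPM, the Pearson correlation of first-minus-last differences was 0.123 between DMD-1 and DMD-2, 0.159 between DMD-1 and DMD-3 and -0.155 between DMD-2 and DMD-3. The 6 pairs among Ctr and WT muscles gave 0.356 to 0.447, and the 12 pairs of a DMD with a Ctr or WT muscle 0.0294 to 0.269. These are descriptions across genes, which are not independent, and muscles share many section numbers at the same end. The difference between the sets of pairs was not tested.

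**Figure D4:**
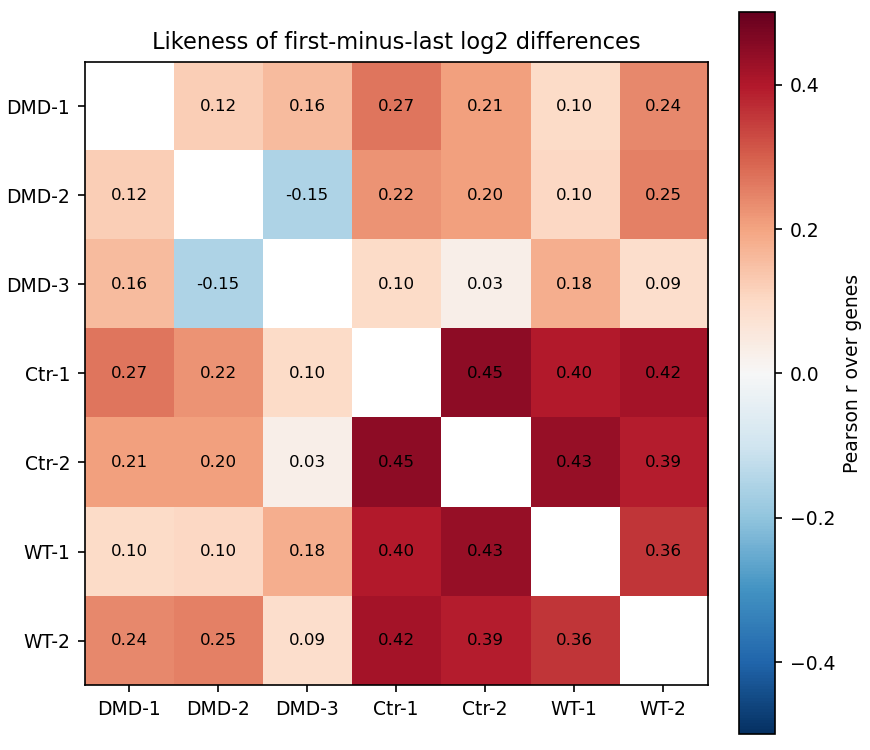
Pearson correlation over 2682 genes of the first-minus-last log2 differences of each pair of muscles (both axes, muscles in the order DMD, Ctr, WT; colour from -0.5 to 0.5). The 3 DMD pairs lie between -0.155 and 0.159, and the 6 pairs of Ctr and WT muscles between 0.356 and 0.447.

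The size of the difference between ends also varied among DMD muscles. In DMD-1, 203 of these 2682 genes (7.57%) differed at least 2-fold, 115 higher and 88 lower at the first end. In DMD-2 there were 12 (0.447%) and in DMD-3 10 (0.373%), against 23 and 30 in Ctr and 31 and 45 in WT. With every sum thinned to 1614082 counts, which adds counting noise to the deeper sums, the numbers were 375, 14 and 67 in DMD, 45 and 47 in Ctr and 57 and 50 in WT. DMD-1 had the most in both settings and was the deepest muscle.

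Different genes led in each muscle, listed here as descriptions of single pairs of sums with a mean of at least 50 scaled CPM. In DMD-1 the 4 haemoglobin genes, Myh2, Mb and Fhl1 (a LIM protein of muscle) had the highest first-over-last values; Fhl1 had 509 scaled CPM in the first end and 123 in the last, with 364 against 376 in DMD-2. Gpnmb, Spi1 (the myeloid transcription factor PU.1), Spp1 (osteopontin) and Cd53 had the lowest, Spp1 with 22.7 against 99.8. In DMD-2 Ankrd1 led in the first end, and Smtnl2, Sbk2 and Myo18a were furthest below 0, at 108 against 211, 704 against 1304 and 55.4 against 101. In DMD-3 Actc1 led, and Thbs4 and Ogn, matrix proteins, were furthest below 0, Ogn at 28.9 against 76.9. Of the genes named in this paragraph, Myh2, Mb, Ankrd1, Smtnl2 and Sbk2 had the same sign in all 3 muscles. The leaders were chosen by their values.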

How the data were processed

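Expected counts were deposited as 1 table per muscle, with 1 column per section; per the file headers, featureCounts 2.0.1 counted exons by gene name on 1 strand and split multi-mapped and overlapping reads into fractions. The submitters' processing notes name STAR 2.7.7a and GRCm38. Per the labels' protocols, RNA came from single sections, with a molecular identifier and section barcode in read 2. WT tables used another annotation, so 53083 genes shared by all tables were used.

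Section counts were summed per end and rounded to whole numbers. R 4.3.3 with edgeR 4.0.16 (filterByExpr, TMM, quasi-likelihood F test, muscle as block, Benjamini-Hochberg) gave the main results, and DESeq2 1.42.0 an alternative. The test was checked on simulated counts. Each standard error was obtained from the fold and its F statistic. Differences within 1 muscle use a prior count of 2. The 2 ends of a muscle are paired by the muscle itself.

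Genes were named by rule: 8 per direction by unadjusted p (mean of at least 20 CPM, 1 sign in 3 muscles), then up to 3 per list by level. Other genes were named after their values were seen. Members, 29 lists (295 genes, 222 tested) and rules were chosen with earlier results of these data known. Gene positions are those in the deposited tables.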

Additional observations from a re-analysis of the deposited data

Results flagged for a closer look

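Myotendinous junction genes (6 tested) had a median first-over-last log2 difference averaging 0.34 over the 3 DMD muscles (0.32, 0.51 and 0.19 in DMD-1, DMD-2 and DMD-3) and -0.47 over the 2 Ctr muscles (-0.41 and -0.54). Every DMD muscle lay above 0 and every Ctr muscle below. The gene lists were searched for such a separation and this list was flagged for it, so the separation is a description. The same held against WT, where the average was 0.34 in DMD and -0.41 in WT (-0.33 and -0.48). The difference between groups was not tested for the list. In library totals its median in DMD-1 and its summed level in DMD-1 and DMD-3 ran the other way. Ankrd1, a member of the list, was above 0 in every muscle.

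For Actc1 the first-against-last difference of DMD minus the mean of Ctr and WT was -1.94 (edgeR adjusted p = 0.0213), with all 4 Ctr and WT muscles above all 3 DMD muscles. For Slfn2 it was -3.48 (edgeR adjusted p = 0.0417), with all 3 DMD muscles below 0 and all 4 others above. This contrast was added after the data were seen.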

How the results depend on the processing

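The count of 0 genes called in DMD stayed at 0 with RLE size factors, DESeq2, ends of 1 in 3 sections, the outermost 3 sections left out, sections of at least 50% of the median total, every section kept, mitochondrial genes removed and library totals only. In the fit with no replicate block it was 0 too, with 155 genes at an unadjusted p below 0.05 against 683 in the paired fit. It was 79 with every gene of at least 1 count, 11 with ends of 1 in 10 sections, 41 with thinned sections and 1 in the fit of all 7 muscles, and 4 to 126 with 1 muscle left out. With every gene kept, DMD minus Ctr called 14, DMD minus WT 23 and DMD minus the mean of both 28. With 1 muscle left out these were 0 to 13, 0 to 12 and 0 to 20. Library totals only and the mean of Ctr and WT were chosen after seeing the data.

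Of 909 values for 57 named genes under the alternatives, 841 kept their sign and their side of the threshold, 34 passed the threshold with the same sign and 34 changed sign. With 1 DMD muscle left out, the log2 ranges that crossed 0 were -0.92 to 0.51 for Fmod, -1.49 to 1.61 for Chad, -0.58 to 0.34 for Thbs4, -0.69 to 0.0198 for Myod1, -0.32 to 0.41 for Casq2, -0.43 to 0.38 for Tpm3, -0.00448 to 0.29 for Atp2a1, -0.51 to 0.0643 for B2m, -0.56 to 0.24 for Col1a1, -0.33 to 0.0547 for Sparc, -0.45 to 0.16 for Dcn, -0.0193 to 0.54 for Car3, -0.0547 to 0.38 for Aldoa, -0.62 to 0.0896 for Mt1, -0.0648 to 0.30 for Hoxc10 and -0.33 to 0.28 for Mss51. With library totals only, Casq2 was -0.0949, Atp2a1 -0.0997, Des -0.10, Mbp -0.13, Aldoa -0.0611 and Hoxc10 -0.11. With ends of 1 in 10 sections Casq2 was -0.0213, Dcn 0.0609 and Mss51 0.10, and with ends of 1 in 3 Prkar1a was 0.17, Mt1 0.0574 and Mss51 0.0712. With every section kept Casq2 was -0.00978 and Mss51 0.0416. Casq2 was -0.0951 with thinned sections and -0.0247 with no replicate block. Chad was 0.40 with sections of at least 50% of the median total and 0.0840 with DESeq2. The cause was not tested. Of 415 list medians, 33 moved by more than the SD over the 3 muscles.

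The number of muscles, 3, the unknown anatomical direction and section numbers of undescribed meaning limit every comparison, and DMD-2 was the shallowest DMD muscle.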
